A study of Danio rerio with 19 samples.

Results

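The il1b amplicon is the interval from 44956550 to 44956948 on chromosome 10 of the zebrafish genome (GRCz11, 399 bp), read by bisulfite sequencing of PCR products. Its members are the cytosine positions of that interval with 10 or more reads in at least 5 ovaries and 5 testes, which held for 10 of the 150 positions that met this rule in the whole series. Reads were listed at 18 positions of the interval in at least 1 fish. The 8 that did not meet the rule had at most 8 reads in any fish, and 2 of their 78 reads over all fish were methylated. The interval is tied to il1b by the series title and by its being the only one of 9 regions on the chromosome of that gene. The il1b gene is ENSDARG00000098700 in Ensembl and 405770 in RefSeq, and in RefSeq's annotation of a later build, GRCz12tu, it is a neighbour of the protein-coding genes cnnm3 and purbb on chromosome 10. No GRCz11 annotation was used here, so whether the CpGs lie in a promoter, an exon or an intron was not analysed.

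The samples were 9 ovaries and 10 testes of the laboratory strain AB, all from fish 90 days old, raised in aquaria under control conditions. Each fish gave 1 whole gonad sample and is 1 replicate, named here by its gonad and the number in its label. Labels do not say whether fish shared a tank or a clutch. Every gonad holds germ cells together with several kinds of somatic cell, so a change in the mix of cells and a change in methylation within a cell type cannot be told apart.

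il1b encodes interleukin-1 beta, a cytokine that macrophages and other cells release during inflammation and that acts through the interleukin-1 receptor. In mammals, members of the interleukin-1 family are also made in the testis. Methylation of cytosine at CpG sites is copied to the new DNA strand by a maintenance methyltransferase at each cell division, and dense methylation of a promoter often goes with low transcription of its gene. Treatment with bisulfite deaminates unmethylated cytosine, which sequencing then reports as T, while methylated cytosine is still reported as C. A methylation level is the percentage of reads at a position that kept C.

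Depth was even over 9 of the 10 positions, and no difference in depth between the gonads was found. At 9 of the 10 positions every fish had between 955 and 18618 reads, and within a fish the coverage of these 9 differed by a factor of at most 1.01. Per fish, the median over these CpGs ran from 1643 to 15959 reads in ovaries (median of the fish 4049). In testes it ran from 957 to 18603 reads (median of the fish 7696.5). The ratio of geometric means was 0.992 (two-sided exact permutation p = 0.986). Counting error was therefore small: the 95% Wilson interval of a level spanned at most 3.16 points to either side, with a median of 0.948 points. The tenth position, 44956948, differed in kind. It reached 10 reads in 5 ovaries and 6 testes, with 10 to 63 reads per fish, and 0 of its 367 reads were methylated. Pooled over these fish, the reads allow a level of up to 0.817%, which bounds no single fish. The upper end of the 95% Wilson interval of a fish ran from 5.75% (testis 4) to 27.8% (ovary 13). Intervals and limits cover counting error only, since no source used here mentions molecular identifiers. Whether the few reads at 44956948 come from the same molecules as those at the other CpGs was not tested.

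Ovaries were less methylated than testes at 8 of the 10 positions and more methylated at none. At all 8 every ovary lay below every testis. The deficit was widest near the start of the amplicon, reaching a difference of -50.4 points at 44956589, and was narrowest at the far end. Over all 150 positions of the series 23.3% were lower and 24% higher in ovaries by the same test, and 18.7% were lower in ovaries without overlap. The test was a two-sided exact permutation of the sex labels, with Benjamini-Hochberg adjustment over the 150 positions and a threshold of 0.05. All 8 positions reached the smallest p that the 92378 splits of 19 fish can give, 1.08e-05 (adjusted p = 4.92e-05).

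The first 7 CpGs lie within 97 bp, at 44956550, 44956563, 44956574, 44956589, 44956616, 44956641 and 44956647. Their mean level was 57.7% ± 7.38 in the ovaries (SD, n = 9), against 92.6% ± 3.55 (n = 10) in testes. Ovaries spanned 48.1% to 68.4% and testes 87.2% to 96.5% and the groups did not overlap.

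The ovary profile over these CpGs was uneven, with low points at the second and the fourth. At 44956589 the lowest, median and highest levels were 27.9%, 37.2% and 54.2% in ovaries, against 84.7%, 91.9% and 95.4% in testes. The difference of the means was -50.4 points (SE 3.62). At 44956563, 26 bp upstream by coordinate, they were 41.1%, 46.8% and 55.9% in ovaries and 86.6%, 92.6% and 95.9% in testes (difference -44.6 points, SE 2.19). These are the CpGs at which the ovaries stood lowest. Between them, at 44956574, ovaries had 50.3%, 59.1% and 73.2% and testes 87.6%, 94.1% and 96.3% (difference -33.3 points, SE 2.93). The first CpG, 44956550, had 41.8%, 57.1% and 70.7% in ovaries and 87.3%, 94.4% and 97.2% in testes (difference -36.1 points, SE 3.35).

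The next 3 CpGs formed a plateau in ovaries. At 44956616 ovaries had a lowest, median and highest level of 55.1%, 67.7% and 78.2%, against 87.5%, 93.9% and 96.9% in testes. The difference was -27.2 points there (SE 2.85), -27.2 points at 44956641 (SE 2.47) and -25.5 points at 44956647 (SE 2.72). In ovaries the highest level at these 3 CpGs was 80.8%, in ovary 6 at 44956647, and in testes the lowest was 87.5%, in testis 14 at 44956616.

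**Figure D1:**
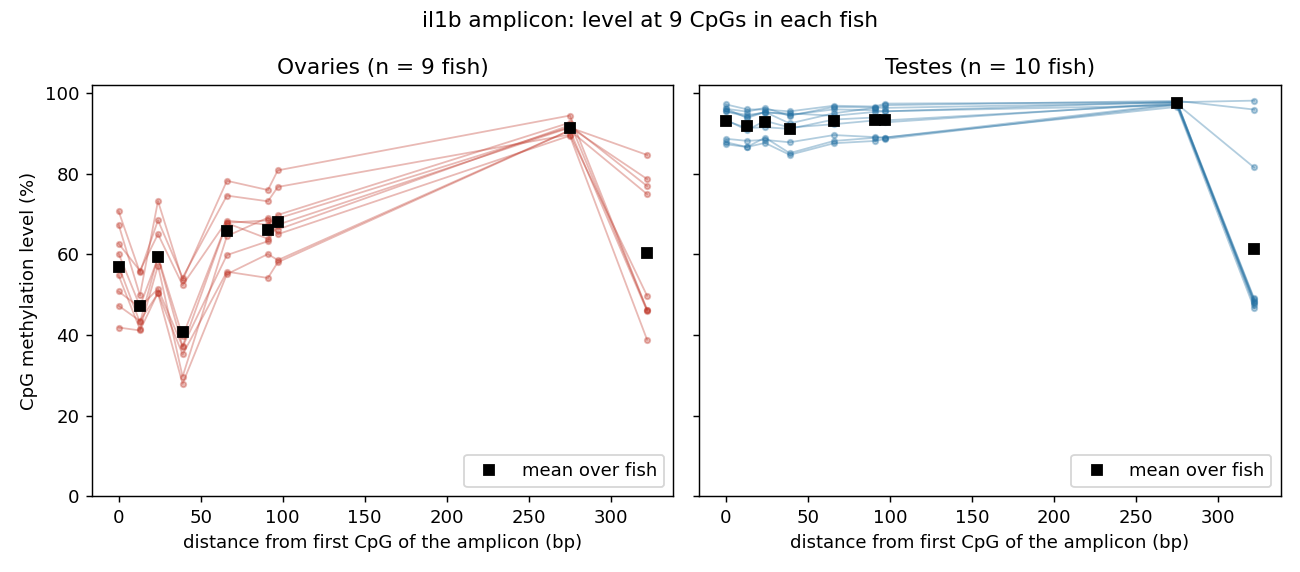
Methylation level in percent (y axis) at the 9 CpGs of usual coverage, by distance in bp from the first CpG (x axis), with ovaries on the left and testes on the right. Each line joins the CpGs of 1 fish and black squares are means; ovaries dip to a mean of 40.8% at 39 bp and both gonads stand above 89% at 275 bp in every fish, while at 322 bp the fish of either gonad separate into high and low levels.

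The CpG at 44956825 lies 178 bp beyond the plateau and was almost fully methylated in both gonads. Its lowest, median and highest levels were 89.4%, 91.4% and 94.4% in ovaries and 96.6%, 97.4% and 98.1% in testes. The groups still did not overlap, with a difference of -5.99 points (SE 0.530). It was the highest of the 8 CpGs compared within a fish (all but 44956872 and 44956948) in 9 of 9 ovaries and 10 of 10 testes.

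The order of the CpGs was much the same in both gonads even though their levels differed. Among the same 8 CpGs, 44956589 was the lowest in 8 of 9 ovaries and in 7 of 10 testes; 44956563 was the lowest in the remaining ovary and in 2 of the remaining testes. In testes of low depth the lowest CpG can fall within counting error. In testis 9, for example, 44956589 was at 91.1% and 44956563 at 91.3%. Across these 8 CpGs the mean levels of ovaries and testes had a Pearson's r of 0.960 and a Spearman's rho of 0.929, as a description only, since the CpGs share reads and fish. What differed was the amplitude. Between the highest and the lowest of the first 7 CpGs a fish spanned 17.4 to 39.4 points in ovaries (median 30.2), against 1.13 to 4.53 points in testes (median 2.41). These spans are in percent only, a scale on which the testes lay near full methylation.

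The size of the ovary deficit was not uniform along the amplicon. To test this, the level at each CpG was set against the mean of the other CpGs of usual coverage in the same fish, and this departure was compared between the gonads by exact permutation, adjusted over all 150 positions. By this test 16.7% of the series' positions departed downward in ovaries and 13.3% upward, against 4 and 3 of the 10 in the amplicon. The downward ones were 44956589, at -23.6 points from the other CpGs in ovaries and 1.70 points in testes (difference -25.3, adjusted p = 0.000232), 44956563 (difference -18.7, adjusted p = 0.000232), 44956550 (-9.19, adjusted p = 0.00173) and 44956574 (-6.10, adjusted p = 0.0184). These 4 are the first 4 CpGs of the amplicon.

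The upward departures were at the far end. At 44956825 the level stood 33.4 points above the other CpGs in ovaries and 8.69 points above them in testes (difference 24.7, adjusted p = 0.000232 by exact permutation). The departures of 44956872 (difference 30.3, adjusted p = 0.0358) and of the thinly covered 44956948 (29.6, adjusted p = 0.0155) were also upward. Since 44956948 was at 0 in every fish counted, its departure is that of the other CpGs with the sign turned. At 44956872 the gonads differed by only -0.964 points, so its departure also came mainly from the other CpGs. Each CpG of usual coverage is part of the mean that the others are set against. Downward and upward departures are therefore not independent results. The call at 44956872 was lost without any one of ovaries 2, 5, 13, 15 and 17 or testes 7, 8, 10, 12, 14 and 19 (differences 26.9 to 31.1, adjusted p 0.0553 to 0.0683 by exact permutation). For the 3 plateau CpGs the departures did not pass (differences 0.785 to 2.74, adjusted p 0.0925 to 0.782 by exact permutation), although 44956647 passed without ovary 13 (3.29, adjusted p = 0.0298).

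The scale and the choice of comparison CpGs mattered for the smaller departures. With 44956872 kept out of the mean of the other CpGs, the 3 plateau CpGs departed upward as well, by 4.67, 4.65 and 6.64 points (adjusted p = 0.00018, 0.000696 and 0.00018 by exact permutation). On a log2-odds scale, which stretches levels near 100%, 44956550, 44956563 and 44956589 still departed downward (-0.747, -1.02 and -1.36 log2 units) and 44956825 upward (1.18 log2 units). Their adjusted p by exact permutation ranged over 0.00135 to 0.00207. On that scale the departures at 44956574 and 44956872 did not pass (adjusted p = 0.0617 and 0.0512).

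**Figure D2:**
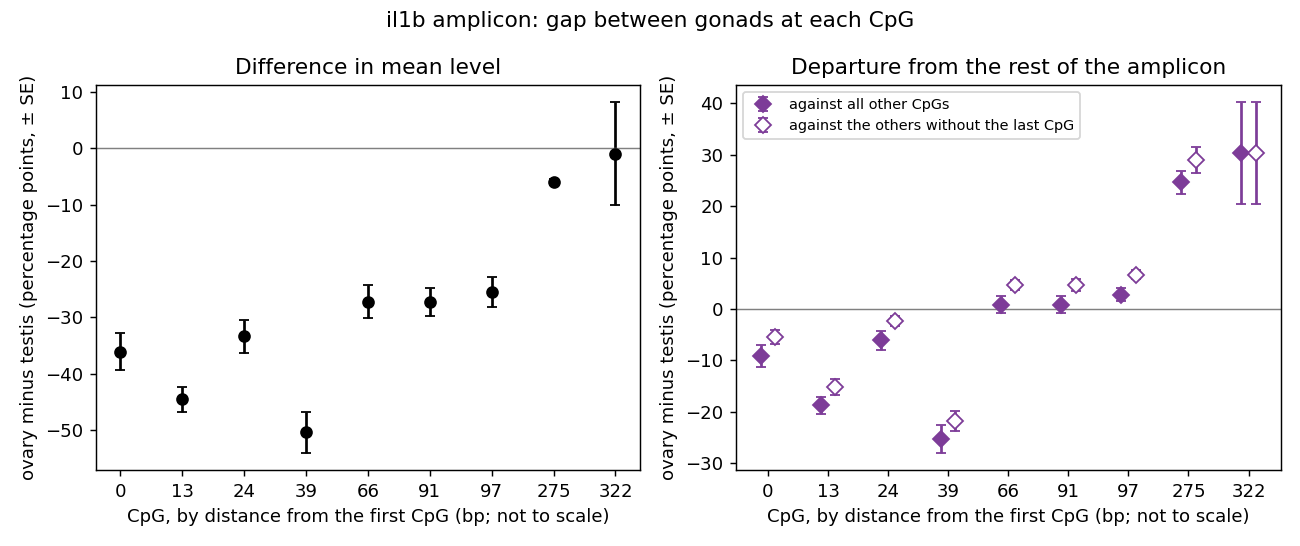
Left, ovary mean minus testis mean in percentage points (y axis) at each of the 9 CpGs of usual coverage, labelled by distance in bp from the first CpG (x axis, not to scale), with bars of 1 SE. Right, the same difference for the departure of a CpG from the other CpGs of the fish, with 44956872 (322 bp) among those others (filled) or left out of them (open); the first 4 CpGs lie below 0 and the CpG at 275 bp above it in both versions.

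At 44956872, the last CpG of usual coverage, fish of both gonads took either of 2 ranges of level, and no difference between the gonads was found (60.3% ± 18 in the 9 ovaries and 61.2% ± 21.6 in the 10 testes, mean ± SD). The two-sided exact permutation p was 0.920 (adjusted p = 0.985). Ovaries 1, 5, 6, 11 and 18 had 38.8%, 46.0%, 46.3%, 46.3% and 49.7%. Ovaries 2, 13, 15 and 17 had 78.7%, 74.9%, 84.6% and 76.9%. Among testes, the 7 fish numbered 7, 8, 9, 10, 12, 14 and 19 lay between 46.7% (testis 8) and 49.1% (testis 7). Testes 3, 4 and 16 had 95.9%, 81.5% and 98.1%. No fish had a level between these ranges, and each range held fish of both gonads.

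Set against the level at 44956825, 47 bp away on the same amplicon, the split remained. The ratio of the levels was 0.435 to 0.555 in 5 ovaries and 0.483 to 0.502 in 7 testes. It was 0.826 to 0.926 in the other 4 ovaries and 0.838 to 1.004 in the other 3 testes, and no fish had a ratio between 0.6 and 0.8. These bounds were set after the values had been seen. Bisulfite reads do not tell a T in the DNA from an unmethylated C, and whether every fish carries a CpG at this position was not tested, so the levels at 44956872 may not measure methylation alone. Without this CpG and 44956948, the difference of the amplicon mean was -31.3 points. Coverage at 44956872 was at least 98.9% of that at 44956825 in every fish.

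**Figure D3:**
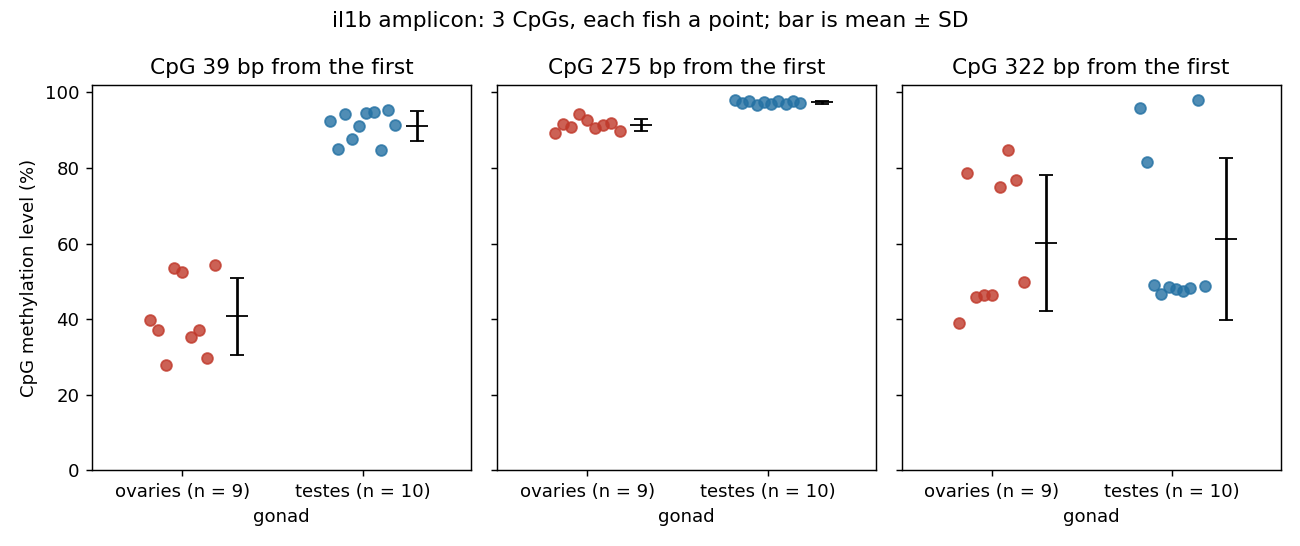
Methylation level in percent (y axis) of each fish (points) in ovaries and testes (x axis) at the CpGs 39, 275 and 322 bp from the first, with the mean and SD as bars. At 39 bp and 275 bp no ovary reaches the lowest testis, and at 322 bp fish of both gonads lie either under 50% or above 70%.

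No difference in the spread between fish passed the test at any of the 10 positions, in percent or in log2 odds, by exact permutation of each fish's absolute deviation from the median of its own sex. In the series, 15.3% of positions had a larger spread in ovaries by this test and 0% a smaller one. The SDs of the first 7 CpGs were 5.62 to 10.2 points in ovaries and 3.38 to 4.04 points in testes. In percent the smallest unadjusted p values were those of 44956825 (SD 1.53 against 0.450 points, exact permutation p = 0.0222, adjusted p = 0.119) and 44956550 (SD 9.39 against 3.77 points, exact permutation p = 0.0310, adjusted p = 0.145). The call at 44956825 appeared without ovary 2 or ovary 15 (adjusted p = 0.0309 and 0.0212 by exact permutation), and that at 44956550 without ovary 1 (adjusted p = 0.0425). On the log2-odds scale the SD at 44956550 was 0.564 in ovaries and 0.834 in testes, so the order of the spreads turned round with the scale. The smallest unadjusted p on that scale was at 44956563, with an SD of 0.327 in ovaries against 0.695 in the testes (adjusted p = 0.133, raw exact permutation p = 0.00799).

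Within a gonad the first 7 CpGs varied together from fish to fish. The level of a CpG was compared with the mean of the other CpGs of usual coverage over the fish of 1 sex, 18 relations in all. For these 7 CpGs Pearson's r was 0.695 to 0.955 in ovaries (n = 9, exact permutation) and 0.666 to 0.850 in testes (n = 10, permutation test), with adjusted p from 0.00298 to 0.0458. Spearman's rho was 0.717 to 0.967 in ovaries and 0.782 to 0.952 in testes (adjusted p 0.00149 to 0.0474 by permutation). Without the 2 fish farthest from the median, r was 0.626 to 0.968 in ovaries and 0.754 to 0.885 in testes. The mean of the other CpGs included 44956872 in these relations. With 44956872 kept out of it, r for the 7 CpGs was 0.765 to 0.969 in ovaries and 0.969 to 0.996 in testes. These CpGs sit on the same reads, so they share library, depth and molecules. Testes 4, 8 and 14 had the lowest levels at each of the 7 CpGs, at most 89.6%, while the other 7 testes had at least 90.8%. The relations were not tested within those 7 testes.

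The CpG at 44956825 followed the others less clearly. In ovaries its relation did not pass (r = 0.434, exact permutation p = 0.245, adjusted p = 0.259). Its rho was 0.5 there (exact permutation p = 0.178), and r was 0.0762 once the 2 fish farthest from the median were dropped. Keeping 44956872 out of the mean gave the ovaries an r of 0.368 (exact permutation p = 0.335, adjusted p = 0.354). That r was 0.430 without the 2 farthest fish. The testes gave an r of 0.739 (adjusted p = 0.0243 by permutation, raw p = 0.0149) and a rho of 0.661 (adjusted p = 0.0528, raw p = 0.0440), and r was 0.640 once the 2 farthest fish were dropped. With 44956872 kept out of the mean, the relation in testes did not pass (r = 0.637, permutation p = 0.0490, adjusted p = 0.0589). For 44956872 itself no relation is given, because its fish fall into separate ranges of fewer than 6 fish in ovaries.

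The mean over the amplicon in each fish depended on whether 44956948 was counted. Over all 10 positions it was 58.4% ± 6.54 in the ovaries (SD, n = 9), against 84.3% ± 5.56 (n = 10) in testes. Because that position enters only the 11 fish with 10 or more reads there, and lowers their mean, the 9 CpGs of usual coverage describe the fish more evenly: 61.7% ± 5.23 in the ovaries (SD, n = 9), against 89.7% ± 4.08 (n = 10) in testes. Ovary 6 was the highest ovary, at 68.9%, and testis 14 the lowest testis, at 84.0%. Of all 171 pairs of fish, 1 agreed within sampling noise over these 9 CpGs: testes 9 and 19 (chi-square per CpG 0.422, chi-square p = 0.924), which are also the testes with the fewest reads. Counting this pair as 1 sample left 8 positions lower in ovaries. The chi-square takes the 9 CpGs as independent, although they share reads.

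The regions on chromosomes 18 and 19 were also less methylated in ovaries, and the size of the gap in il1b was tested against theirs. The difference between the amplicon and the other region was taken in each fish and compared between gonads by exact permutation, adjusted over the 2 regions. Over all positions the amplicon stood 25.2 ± 13.5 points above the chromosome 18 region in ovaries (SD, n = 9) and 4.33 ± 5.53 points above it in testes (SD, n = 10), a difference of 20.9 points (exact permutation p = 0.000303, adjusted p = 0.000606). The ovary deficit was thus smaller in il1b, at -25.9 points, than on chromosome 18, at -46.8 points. Without positions of very low coverage the amplicon stood 24.3 ± 13.9 points from the chromosome 18 region in ovaries and -6.23 ± 3.67 points from it in testes (SD), a difference of 30.5 points (adjusted p = 4.33e-05 by exact permutation).

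Against the chromosome 19 region the il1b amplicon had the wider deficit in percent. It stood -7.38 ± 7.32 points from that region in ovaries (SD, n = 9) and 1.72 ± 5.48 points from it in testes (SD, n = 10), a difference of -9.10 points (exact permutation p = 0.00619, adjusted p = 0.00619). Without 44956872 and positions of very low coverage it was -14.5 points (adjusted p = 2.17e-05 by exact permutation). With all positions counted, the difference was not found on the log2-odds scale (-0.192 log2 units, adjusted p = 0.574 by exact permutation). Without 44956872 and positions of very low coverage it was not tested on that scale. Whether the wider deficit depends on the scale alone was therefore not tested. Among CpGs of usual coverage, the gap between the gonads ran from -50.4 to -0.964 points over the 9 of il1b, from -61.3 to -52.7 points over 15 on chromosome 18 and from -40.9 to 2.47 points over 7 on chromosome 19. The narrow end of the il1b range is 44956872, whose levels may not measure methylation alone. In percent, departures from the rest of the region passed at 6 of the 9, 5 of the 15 and 6 of the 7. Over all 150 positions 16.7% departed downward in ovaries and 13.3% upward. The 6 of il1b include 44956872, whose call was lost when single fish were left out, and the il1b count changed with the scale and the comparison CpGs.

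**Figure D4:**
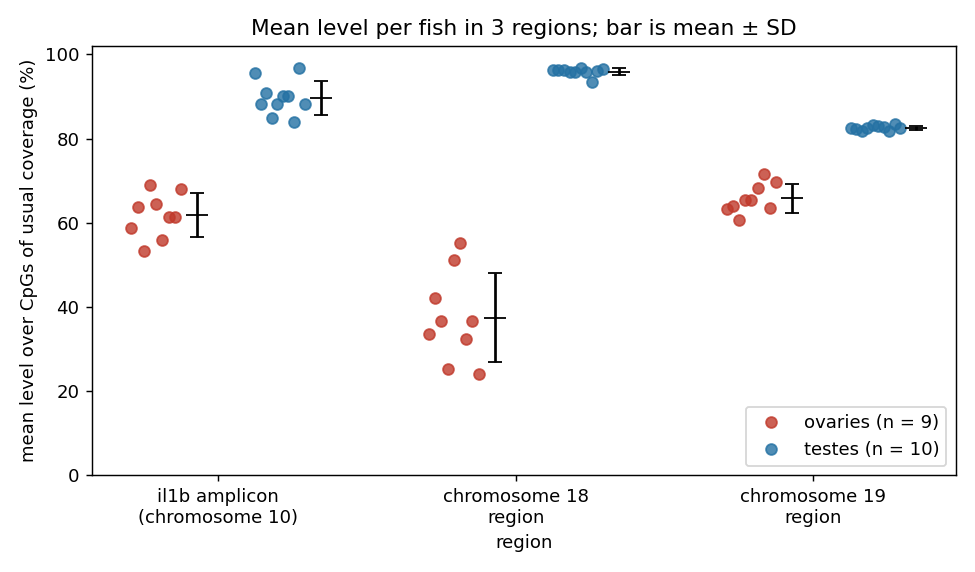
Mean level in percent over the CpGs of usual coverage (y axis) per fish (points) in ovaries and testes for the il1b amplicon and the chromosome 18 and 19 regions (x axis), with mean and SD as bars. Ovaries lie below testes in all 3 regions; the il1b means are 61.7% in ovaries and 89.7% in testes.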

How the data were processed

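Reads of bisulfite PCR amplicons from 19 gonads (1000 ng of DNA each, per the labels' protocols) were processed by the authors with Trim Galore 0.4.5, FastQC 0.11.6, Bowtie2 and Bismark on GRCz11, per the submitters' processing notes. The deposited files give counts of methylated and unmethylated reads per position and fish, per the file headers. The deposited percent methylated equals the ratio of these counts in all 4476 combinations of position and fish, and the series table holds the same counts in 4476. No coverage filter or conversion control is described in the sources used here.

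Positions under 1000 bp apart formed a region, and a median coverage under 10% of the region's was called very low. A fish entered a region mean with at least 50% of its positions. The test of a CpG compared means weighted for counting error and for extra variation among fish (beta-binomial, Williams); printed differences are of unweighted means. Log2 odds used a pseudocount of 1 on each count. Correlations used exact permutation in ovaries and 100000 resamples in testes. Every position meeting the coverage rule is named. The tests of level, departure and spread were run on simulated data in which each CpG was drawn independently. The CpGs of the amplicon share reads, which the simulated data did not copy. Differences between regions and correlations were not simulated. The region, comparisons and tests were chosen with earlier results of these data known. Software was limma 3.58.1 in R 4.3.3, and scipy 1.17.1, numpy 2.4.6 and pandas 2.3.3 in Python 3.11.15, with figures drawn by matplotlib 3.10.9.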

Additional observations from a re-analysis of the deposited data

How the results depend on the processing

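The 8 positions lower in ovaries kept their direction and an adjusted p of at most 0.000181 under all 27 alternatives run for each: coverage minimums of 5, 30 and 100 reads, equal or coverage weights, limma on log2 odds, adjustment without positions of very low coverage, the agreeing testes counted as 1, and each fish left out. At 44956872 the difference of the weighted means ran from -4.03 to 3.12 points with 1 fish left out and passed in none of these. The number of positions with a different spread, 0, ran from 0 to 1 with 1 fish left out. The number departing from the rest of the amplicon, 7, ran from 5 to 7 with 1 fish left out, was 5 on log2 odds and 10 against the median of the other CpGs. With all positions counted, the difference from the chromosome 19 region was -0.192 log2 units on the log-odds scale, where it did not pass. The cause was not tested. With 1 fish left out the differences from the chromosome 18 and 19 regions ran from 18.4 to 25.0 and from -11.5 to -7.84 points and passed each time. No paired analysis was possible because ovaries and testes share no replicate number. Alternatives that leave 44956872 out were chosen after seeing the data.

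Depth limits the amplicon only at 44956948. No conversion control, genome sequence or molecular identifier was used here. Permutation and limma p-values take these fish as the replicates, while the chi-square p of a pair of fish rests on read counts alone.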

Other observations

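Pearson's r of the amplicon mean with depth took another sign in both gonads when 44956948 was counted. That position enters only the fish with 10 or more reads there and lowers their mean. The mean over all 10 positions is therefore tied to depth by its construction. Across the 10 testes, the mean over all 10 positions and log10 coverage had an r of -0.630 (permutation p = 0.0480, adjusted p = 0.192 over 4 relations, rho = -0.636, permutation p = 0.0539, r = -0.557 once the 2 fish of most extreme depth were dropped). Over the 9 CpGs of usual coverage r was 0.234 (permutation p = 0.509, rho = 0.261, permutation p = 0.469, r = 0.139 without those 2 fish). In the 9 ovaries r was -0.240 and 0.164 for the same means (exact permutation p = 0.528 and 0.666, rho = -0.483 and 0.0667, exact permutation p = 0.194 and 0.880, r = -0.474 and -0.327 without the 2 farthest fish). None of the 4 relations passed after adjustment.

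Of the 24 sets of values examined for a single fish far from the rest of its group, none held one. The sets were the levels of each of the 9 CpGs of usual coverage, the amplicon means and the coverage in each gonad. The rule compared the most extreme fish with its nearest neighbour, so it can miss several fish that lie apart together. Testes 3, 4 and 16 at 44956872 are such a case.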
